A study of Mus musculus with 21 samples.

Results

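The genes described here are 35 components of mTOR signalling in mouse brain, chosen by symbol and all found among the 21872 genes of the count tables. They comprise the mTOR kinase and its partners, the TSC complex with Rheb, the Rag GTPases with Ragulator, GATOR1, the sestrins, PI3K with Akt, and the S6 kinases with the 4E-BPs. RNA was sequenced from 21 libraries of brain tissue. At embryonic day 18.5 (E18.5) there were 6 libraries from controls given water and 6 from the group given trientine (TETA), a copper chelator, whose condition the labels call copper-deficient. At 7 weeks after birth there were 5 control and 4 TETA libraries. The labels give no strain, dose, route or start of treatment. Their protocol names the prefrontal cortex of male mice at 7 weeks, and the region and sex at E18.5 are not stated. No label says which libraries came from separate animals, so the p-values measure the spread between these libraries, which may be technical in part.

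mTOR is a protein kinase that works in distinct protein complexes. In mTORC1, with Raptor, it promotes protein synthesis and restrains autophagy when growth factors and amino acids are present. In mTORC2, with Rictor, it phosphorylates Akt and SGK1. Growth factor signals pass through PI3K, Akt and the TSC complex to the small GTPase Rheb, which activates mTORC1, while amino acid signals pass through sestrins and GATOR1 to the Rag GTPases, which bring mTORC1 to the lysosome. In the brain the pathway governs neuron size, axon and dendrite growth and synaptic protein synthesis, and inherited loss of its inhibitors TSC1, TSC2 or DEPDC5 can cause epilepsy. These are properties of proteins, and only transcript abundance was measured here.

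The 12 E18.5 libraries held 14678265 to 24308555 counts and the 9 libraries of 7 weeks held 17838051 to 24035857, of which the 35 genes took 0.243% to 0.255% and 0.228% to 0.237%. The smallest count of any of them in a library was 24 (Eif4ebp1), and all 35 were tested in every comparison. Neuronal defining markers were present in every library: Snap25 was at 236 to 264 CPM in E18.5 controls and at 3435 to 3630 CPM in 7-week controls. At E18.5, 4 of 6 control and 3 of 6 TETA libraries held Y-linked reads above 5 CPM, and all 9 libraries did at 7 weeks. The E18.5 libraries without such reads lay apart on the second component of all 21 libraries, at -7.57 to -11.9 against 2.56 to 14.2 for the other E18.5 libraries. Without them the comparison of TETA with control at E18.5 called 0 of the 35 genes and 0 of all genes, as it did with them. E18.5 libraries carry numbers in 2 parts, and whether a shared first part marks a litter is not stated.

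Levels are CPM, counts relative to the library total after scaling by TMM factors, and levels of different genes are compared only as CPM per kb of annotated exon. On that scale Akt1, the kinase downstream of PI3K, was highest at E18.5, at 88.3 ± 5.95 CPM per kb in control (SD, n = 6). The lowest there was Deptor, whose product binds and inhibits mTOR, at 0.386 ± 0.0604 CPM per kb. At 7 weeks Rraga, encoding RagA, was highest at 67.3 ± 4.11 CPM per kb in control (SD, n = 5), and Slc38a9, encoding a lysosomal arginine sensor, was lowest at 1.44 CPM per kb. Mtor itself was at 10.5 ± 0.651 CPM per kb at E18.5 and at 14.4 ± 0.367 CPM per kb at 7 weeks. The median coefficient of variation of the 35 genes within a group was 6.51% in E18.5 controls, 4.94% in E18.5 TETA, 4.77% in 7-week controls and 4.45% in 7-week TETA.

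**Figure D1:**
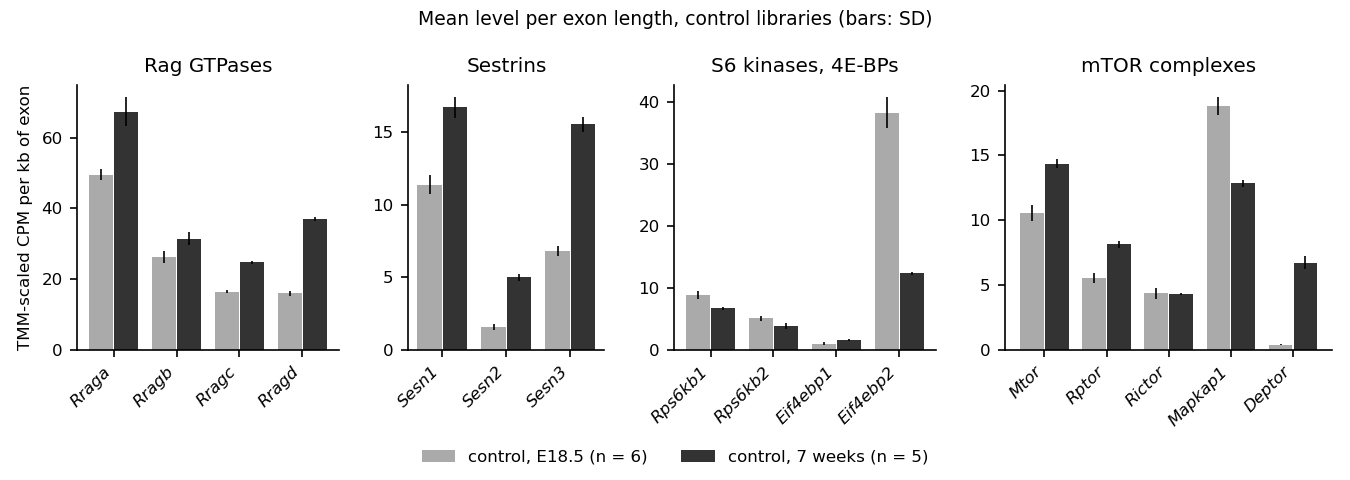
Mean TMM-scaled CPM per kb of exon (bars, from 0) with SD in control libraries at E18.5 (grey, n = 6) and 7 weeks (black, n = 5) for 16 of the genes in 4 panels. Rragd goes from 15.9 to 36.9 and Eif4ebp2 from 38.2 to 12.3, while Rictor is at 4.34 and 4.29.

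The comparison at E18.5 asks whether the chelator altered these transcripts before birth. Of the 35 genes, 0 passed an adjusted p of 0.05 by the quasi-likelihood F-test of edgeR (Benjamini-Hochberg adjustment, BH), and 0 had an unadjusted p below that value. Of all 13794 genes in the fit, 0% passed the adjusted threshold and 4.78% were below it unadjusted. DESeq2 called 10 genes of the whole table and 0 of the 35. The log2 fold changes of the 35 genes ran from -0.17 (Eif4ebp1, SE 0.17) to 0.08 (Sesn3, SE 0.041), and control and TETA values overlapped for each of them, where 0.319% of all genes did not overlap. The median absolute log2 fold change was 0.04 for the 35 genes and 0.04 for all genes.

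By role, the kinase and the scaffolds that define its complexes differed little at E18.5. Mtor ran from 99.05 to 116 CPM with a median of 106 in control and from 104 to 123 CPM with a median of 111 in TETA. Rptor, encoding Raptor, ran from 69.6 to 84.0 CPM (median 74.1) in control and from 71.6 to 80.3 CPM (median 77.7) in TETA. Rictor ran from 62.8 to 85.4 CPM (median 73.0) in control and from 73.3 to 83.0 CPM (median 76.0) in TETA. The control range of each of these 3 genes covered most of the TETA range. Their log2 fold changes were 0.07 (SE 0.045), 0.03 (SE 0.044) and 0.06 (SE 0.052).

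The 2 inhibitory TSC subunits were in the same position. Tsc1, encoding hamartin, ran from 121 to 135 CPM (median 124) in control and from 118 to 135 CPM (median 132) in TETA. Tsc2, encoding tuberin, ran from 125 to 147 CPM (median 133) in control and from 127 to 146 CPM (median 139.8) in TETA. TETA values lay inside or next to the control range, and the log2 fold changes were 0.04 (SE 0.039) and 0.05 (SE 0.043).

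The 3 genes with the smallest p-values at E18.5 had edgeR adjusted p-values of 0.996. Sesn3, a stress-induced sestrin that restrains mTORC1, ran from 96.1 to 111 CPM (median 103) in control and from 102 to 117 CPM (median 109) in TETA (log2 fold change 0.08, SE 0.041). Mlst8, encoding a subunit of both complexes, ran from 38.2 to 41.8 CPM (median 40.2) in control and from 35.9 to 39.5 CPM (median 37.97) in TETA (log2 fold change -0.08, SE 0.042). Akt1s1, encoding the mTORC1 inhibitor PRAS40, ran from 55.9 to 60.1 CPM (median 59.2) in control and from 54.4 to 58.6 CPM (median 55.5) in TETA (log2 fold change -0.06, SE 0.036). In all 3 the groups overlapped. Of the exon bases of Mlst8, 22.5% overlap Bricd5 on the opposite strand, which averaged at most 0.234 CPM in any group.

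**Figure D2:**
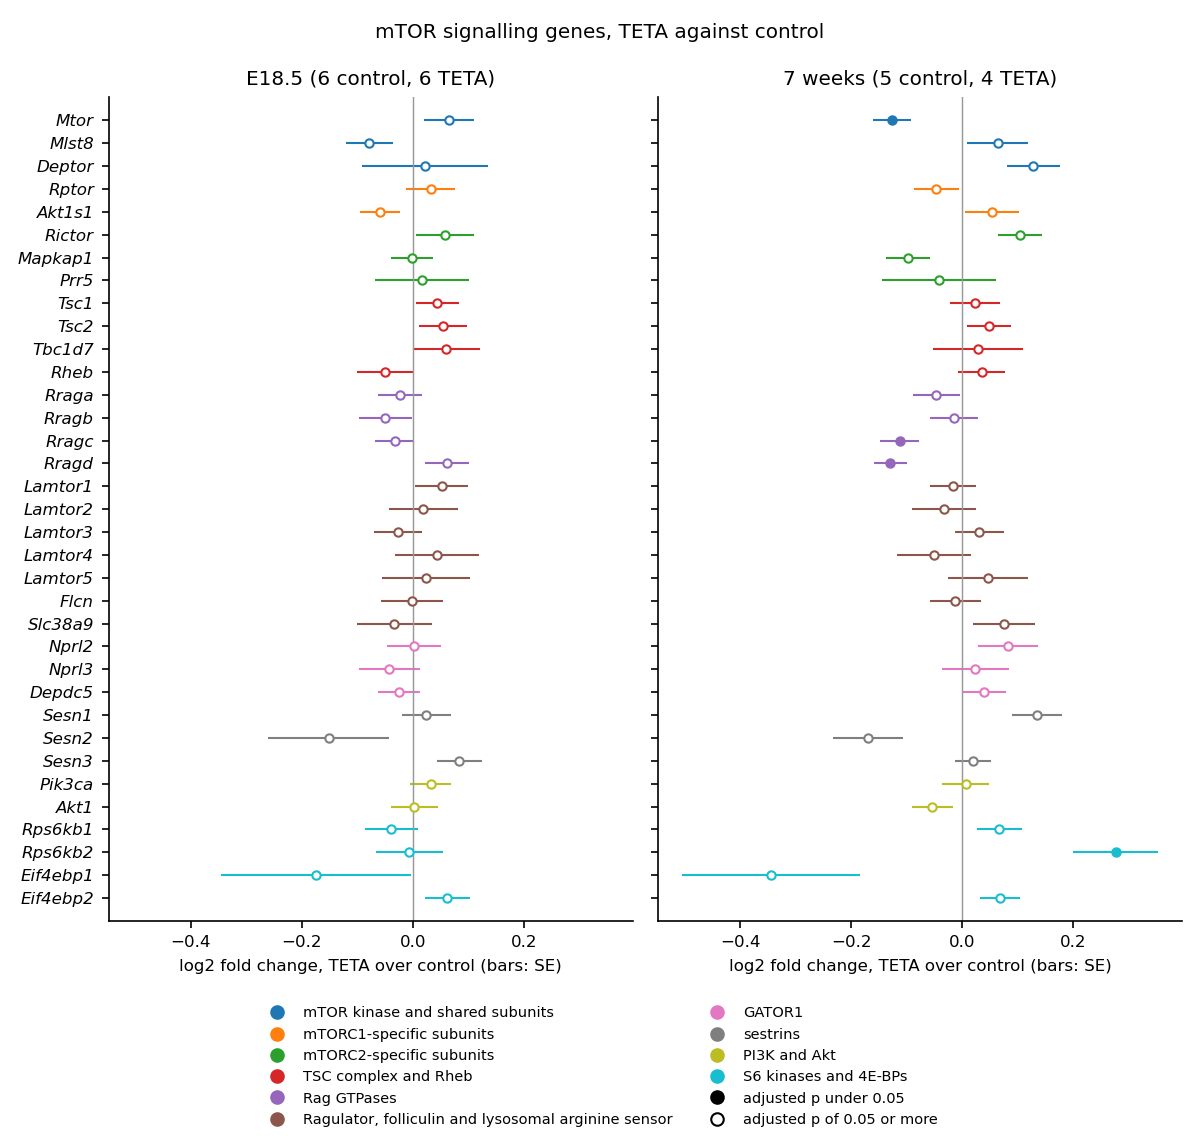
Log2 fold change of TETA over control (points) with SE (bars) for the 35 genes at E18.5 (left, 6 and 6 libraries) and 7 weeks (right, 5 and 4), coloured by role; filled points have an adjusted p under 0.05. No point is filled at E18.5, and Mtor, Rragc, Rragd and Rps6kb2 are filled at 7 weeks.

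At 7 weeks, TETA libraries held slightly less transcript of Rragd and Rragc, which encode the paralogous RagD and RagC GTPases, and of Mtor. They held more of Rps6kb2, which encodes the S6 kinase S6K2. These genes lie at chr4:32983037-33022180 (Rragd), chr4:123917446-123936997 (Rragc), chr4:148448611-148557683 (Mtor) and chr19:4153991-4163354 (Rps6kb2) in GRCm38. The 3 decreases were of 7.51% to 8.59% and the increase was of 21.2%. These were the 4 of 35 genes (11.4%) that edgeR called at a BH-adjusted p of 0.05, against 9.96% of the 14240 genes in the fit, so that the number called is near the background of this comparison. Without adjustment, 10 of the 35 and 24% of all genes were below 0.05. Of all genes called, 57.0% were higher in TETA, and 67.6% when library totals replaced TMM factors, where Rragc was no longer called and Sesn1 was.

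Rragd was at 191, 192, 187, 195 and 189.6 CPM in the 5 control libraries and at 172, 170.4, 176 and 174 CPM in the 4 TETA libraries. Every TETA library was below every control library. The log2 fold change was -0.13 (SE 0.030, edgeR adjusted p 0.00832). In these bulk libraries, fewer cells that express a gene and less RNA of it per cell cannot be told apart. Rragc was at 83.3, 82.2, 80.5, 84.6 and 82.8 CPM in control and at 77.0, 74.0, 76.0 and 76.5 CPM in TETA. Here too the groups did not overlap, and the log2 fold change was -0.11 (SE 0.035, edgeR adjusted p 0.0439). Of its exon bases, 7.90% overlap the gene model 4930535I16Rik on the opposite strand. The GTPases they pair with did not pass: the log2 fold change of Rraga was -0.05 (SE 0.043) and that of Rragb, encoding RagB, was -0.01 (SE 0.043).

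Mtor was at 142, 140.5, 148, 147 and 149 CPM in control and at 132, 137, 132 and 128 CPM in TETA. The highest TETA library was below the lowest control library. The difference was -0.13 on the log2 scale (SE 0.035, edgeR adjusted p 0.0233). Rps6kb2 was at 19.8, 16.9, 18.7, 18.7 and 23.6 CPM in control and at 23.2, 22.9, 24.9 and 23.1 CPM in TETA. Control replicate 5 lay among the TETA libraries, and the other 4 control libraries lay below all of them. The log2 fold change was 0.28 (SE 0.076, edgeR adjusted p 0.0240). Of the annotated exon bases of Rps6kb2, 23.7% overlap Ptprcap on the opposite strand, and Ptprcap itself averaged at most 0.194 CPM in any group. The strand setting of the counting is not given in the sources used here, so reads of such a pair cannot be told apart.

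Of these 4, only Rragd passed on leaving out each of the 9 libraries in turn, with an edgeR adjusted p of 0.0102 to 0.0262. Mtor lost its call without control replicate 4 (adjusted p 0.0527) and without TETA replicates 1, 3 or 4 (0.0537, 0.0569 and 0.0773). Rps6kb2 lost it without control replicates 2, 3 or 4 (0.0662, 0.0546 and 0.0588) and without TETA replicate 3 (0.0923). Rragc kept its call only without control replicate 3 (0.0438), and its adjusted p on leaving out each of the others ran from 0.0658 without control replicate 5 to 0.109 without TETA replicate 2.

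**Figure D3:**
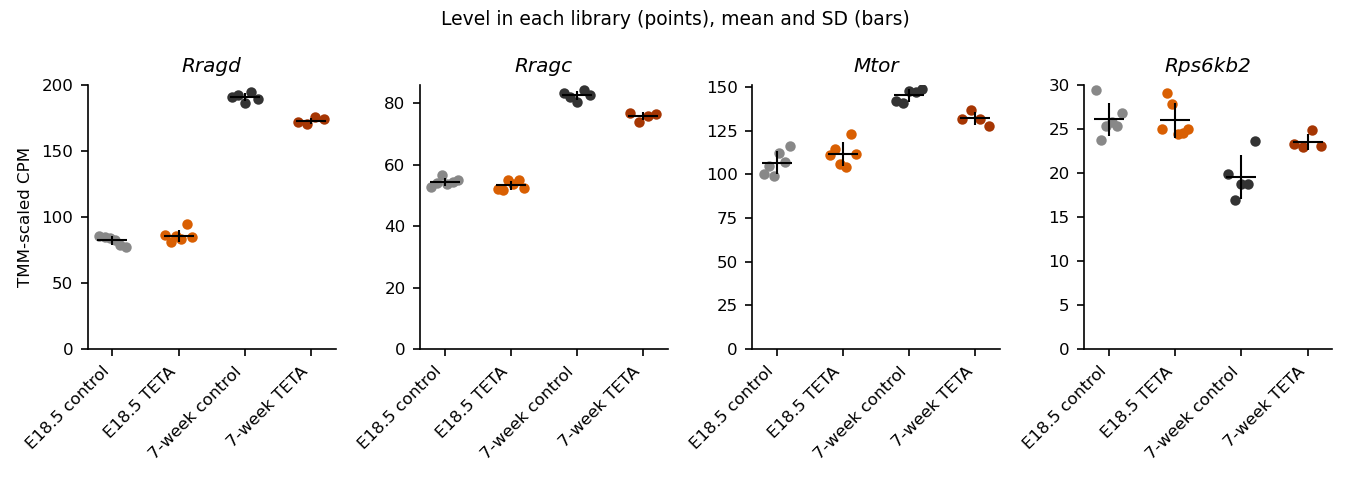
TMM-scaled CPM of Rragd, Rragc, Mtor and Rps6kb2 in each of the 21 libraries (points) with mean and SD (black bars) by group, on axes from 0. At 7 weeks the TETA points lie below all control points for Rragd, Rragc and Mtor, and for Rps6kb2 control replicate 5, at 23.6 CPM, lies among the TETA points.

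Another transcript group differed far more between the same libraries. All 13 of 13 markers of striatal projection neurons, the main cell type of the striatum, were lower in TETA at 7 weeks, with a median log2 fold change of -1.34. Their summed level was 1257 to 1544 CPM in control and 578 to 729 CPM in TETA, and 0 of them were at 0 in every library of a group. Among them Drd2, encoding a dopamine receptor, had a log2 fold change of -2.34. Lower in TETA were 2 of 6 markers of inhibitory neurons (median log2 fold change of the list -0.09), 2 of 5 of astrocytes (-0.12), 1 of 3 of oligodendrocyte precursors (0.04) and 2 of 4 of meningeal fibroblasts (-0.41), and 1 of 4 endothelial markers was higher (0.10). None of the markers of excitatory cortical neurons (6 tested), oligodendrocytes (5), microglia (5), choroid plexus (3), red blood cells (4) or neural progenitors (4) was called. Control replicate 4 stood apart in Ttr, a choroid plexus gene, at 54.8 CPM beside 0.181 to 0.784 CPM in the other control and 0.355 to 1.26 CPM in the TETA libraries. Without that library, Rragd was the 1 gene of the 35 that edgeR called. The part of these cell types in the values of the 35 genes was not tested. With a score of the striatal markers as a covariate, 0 of the 35 genes and 0 of all genes passed (691 genes had an unadjusted p under 0.05), and the log2 fold changes became -0.22 for Rragd (SE 0.12), -0.14 for Rragc, -0.09 for Mtor (SE 0.14) and -0.05 for Rps6kb2 (SE 0.28). The score separated the groups completely, at 0.43 to 0.74 in control and -1.10 to -0.52 in TETA, so that treatment and striatal marker content cannot be told apart in these libraries.

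The remaining subunits of the mTOR complexes did not pass at 7 weeks. Rptor was at 107, 107, 106, 114 and 112 CPM in control and at 96.7, 108, 109.9 and 106 CPM in TETA (log2 fold change -0.05, SE 0.041). Rictor was at 72.2, 72.4, 74.3, 72.1 and 72.5 CPM in control and at 73.6, 81.6, 80.2 and 74.9 CPM in TETA (log2 fold change 0.10, SE 0.040, edgeR adjusted p 0.105). For both genes the groups overlapped. Mapkap1, encoding the mTORC2 subunit SIN1, was at 51.1, 53.9, 51.3, 52.7 and 51.5 CPM in control and at 47.1, 49.4, 49.1 and 47.9 CPM in TETA. Its groups did not overlap, but its log2 fold change of -0.10 (SE 0.039) did not pass (edgeR adjusted p 0.128). With Rragd, Rragc and Mtor it made 4 of 35 genes whose groups did not overlap, against 11.2% of all genes. Deptor was at 54.3 to 64.4 CPM in control and 62.9 to 65.9 CPM in TETA, with an edgeR adjusted p of 0.0952 that became 0.0478 without control replicate 3.

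The upstream inhibitors Tsc1 and Tsc2 did not pass. Tsc1 was at 102, 93.7, 105, 106 and 97.6 CPM in control and at 96.9, 97.3, 109.5 and 103 CPM in TETA (log2 fold change 0.02, SE 0.045). Tsc2 was at 119, 118, 118, 126 and 132 CPM in control and at 119.8, 127, 129.9 and 127 CPM in TETA (log2 fold change 0.05, SE 0.040). Control and TETA values were mixed in both Tsc1 and Tsc2. Pkd1, which overlaps 7.20% of the exon bases of Tsc2 on the opposite strand, was higher in TETA (0.18, SE 0.041, edgeR adjusted p 0.00805). Of the sestrins, which respond to leucine or to stress, 0 of 3 passed. Sesn1 was at 68.0, 61.9, 68.1, 65.9 and 69.0 CPM in control and at 68.5, 78.0, 74.0 and 69.8 CPM in TETA, where only TETA replicate 1 lay within the control range (log2 fold change 0.13, SE 0.046, edgeR adjusted p 0.0668). It was called without that library (adjusted p 0.0448) and with library totals in place of TMM factors (0.0407). Sesn2 had a log2 fold change of -0.17 (SE 0.063, edgeR adjusted p 0.0971), with an unadjusted p below 0.05 as for Sesn1, and Sesn3 had 0.02 (0.770). None of the 3 GATOR1 genes, the 7 genes of Ragulator, folliculin and the arginine sensor, or the PI3K and Akt genes passed, with log2 fold changes between -0.05 (Akt1) and 0.08 (Nprl2). Nor did Tbc1d7 and Rheb (0.03 and 0.04) or, beside Rps6kb2, the genes Rps6kb1 and Eif4ebp2 (0.07 each). Eif4ebp1, encoding the translation repressor 4E-BP1, had the most negative value of the 35 genes, -0.34 (SE 0.16, edgeR adjusted p 0.196), at 36 to 80 counts per library. Without TETA replicate 1, which was at 3.60 CPM beside 2.102 to 2.47 CPM in the other TETA libraries, it was called, at -0.54 (SE 0.16, edgeR adjusted p 0.0422).

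The 4 Rag GTPase genes are shown by the 250 bases upstream of the RefSeq transcription start (GRCm38.p6, plus strand), because 2 of them were lower in TETA at 7 weeks and all 4 were higher at 7 weeks than at E18.5. Capitals mark CACGTG, the E-box that TFEB and other basic helix-loop-helix factors can bind, searched on both strands. The regions are chr4:86575423-86575672 (Rraga), chrX:153139708-153139957 (Rragb), chr4:123917183-123917432 (Rragc) and chr4:32982748-32982997 (Rragd).
Rraga: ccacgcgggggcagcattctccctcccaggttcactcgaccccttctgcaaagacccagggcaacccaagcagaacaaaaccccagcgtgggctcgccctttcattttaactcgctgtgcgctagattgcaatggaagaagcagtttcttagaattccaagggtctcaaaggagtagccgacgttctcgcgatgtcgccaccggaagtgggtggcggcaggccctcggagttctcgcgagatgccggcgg
Rragb: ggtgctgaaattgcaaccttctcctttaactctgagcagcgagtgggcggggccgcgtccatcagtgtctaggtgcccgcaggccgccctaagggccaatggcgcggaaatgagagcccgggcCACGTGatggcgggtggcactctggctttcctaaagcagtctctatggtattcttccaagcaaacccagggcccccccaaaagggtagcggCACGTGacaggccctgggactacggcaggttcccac
Rragc: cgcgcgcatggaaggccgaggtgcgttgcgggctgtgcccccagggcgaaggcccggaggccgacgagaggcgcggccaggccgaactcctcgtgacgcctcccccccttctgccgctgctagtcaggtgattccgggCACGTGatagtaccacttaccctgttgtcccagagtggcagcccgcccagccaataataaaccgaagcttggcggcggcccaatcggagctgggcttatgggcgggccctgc
Rragd: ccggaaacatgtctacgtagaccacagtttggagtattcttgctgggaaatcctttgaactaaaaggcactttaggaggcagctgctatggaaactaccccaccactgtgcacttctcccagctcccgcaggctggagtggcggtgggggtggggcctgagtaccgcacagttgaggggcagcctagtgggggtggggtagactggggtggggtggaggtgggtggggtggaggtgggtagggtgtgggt

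The E-box lay 127 and 36 bases before the start of Rragb and 112 bases before that of Rragc, and was not found in these windows of Rraga and Rragd. Of the 35 genes, 31 had a promoter in the RefSeq table, and Deptor, Eif4ebp1, Lamtor3 and Rps6kb2 had none. Akt1, Mapkap1, Prr5 and Sesn1 had 2 promoters each, 35 in all. CACGTG was in 6 of these 35 promoters (17.1%), those of Lamtor1, Lamtor4, Rheb, Rragb, Rragc and Tbc1d7, and in 6.02% of all 32851 promoters of the same length. Counted by gene, with any promoter matching, it was in 19.4% of the 31 and in 6.86% of all 27025 genes. The 8-base form TCACGTGA, which contains it, was in 0 of the 35 promoters and in 0.785% of all. The GC box GGGCGG was in 21 of the 35 promoters (60.0%) and in 32.7% of all, and by gene in 58.1% of the 31 and 35.4% of all genes. TGATGNAA, an ATF4 motif, was in 1 promoter, that of Lamtor4 (3.45% of all), and TGACGTCA, the cAMP response element, was in 1, that of Flcn (1.55% of all). The promoters of the 35 genes and of all genes were not matched for base composition or for expression in brain. Matches describe the letters of the window and are not evidence of binding.

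Other genes of the pathway were taken from lists of 4 kinds. Of 24 genes of growth factor and energy input, 3 rose and 1 fell in TETA at 7 weeks. Ddit4, encoding the mTORC1 inhibitor REDD1, was at 53.3, 47.0, 49.4, 46.0 and 52.6 CPM in control and at 86.0, 78.3, 70.0 and 56.6 CPM in TETA, without overlap (log2 fold change 0.56, SE 0.083, edgeR adjusted p 1.81e-04). Irs2, an insulin receptor substrate, and Igf1r, the IGF-1 receptor, had log2 fold changes of 0.32 (SE 0.049) and 0.22 (SE 0.048). Ddit4l, the paralogue of Ddit4, fell by 0.32 (SE 0.068).

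Of 22 effectors and substrates tested, 2 rose and 3 fell at 7 weeks. Foxo1, encoding a transcription factor restrained by Akt, was at 29.2, 26.8, 30.4, 28.9 and 28.2 CPM in control and at 21.8, 22.8, 21.0 and 18.8 CPM in TETA, without overlap (log2 fold change -0.43, SE 0.061, edgeR adjusted p 1.31e-04). Sgk1, encoding a kinase activated by mTORC2, was at 92.0, 63.8, 69.6, 70.4 and 119.8 CPM in control and at 146, 163, 137 and 92.3 CPM in TETA. The spread was wide and the groups overlapped, with a log2 fold change of 0.70 (SE 0.15, edgeR adjusted p 0.00459). Ndrg1, whose product is phosphorylated by SGK1, rose by 0.22 (SE 0.052), and Eef2, translation elongation factor 2, fell by 0.13 (SE 0.030), both on the log2 scale. Eif4g1, an initiation factor, was the other gene that fell, by 0.11 (SE 0.032), and its call was lost without control replicates 3 or 4 or TETA replicates 1, 2 or 3 (edgeR adjusted p 0.067 to 0.133). Over all 16 alternatives at 7 weeks, Eif4g1 lost its call in 7, and Ndrg1 and Eef2 in 2 each.

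Of 19 other genes of amino acid sensing tested, 2 rose and 0 fell. Among them Castor2, an arginine sensor paralogue, was at 193, 193, 199, 197 and 187 CPM in control and at 211, 227, 220.3 and 219 CPM in TETA, without overlap, and rose by 0.19 on the log2 scale (SE 0.032). Of 12 genes of ATF4 and its targets, a programme that mTORC1 can drive, 0 rose and 1 fell. This was Chac1 (-0.34, SE 0.087), whose call was lost in 3 of 16 alternatives, among them without TETA replicate 3 (edgeR adjusted p 0.0617). At E18.5 none of these lists had a gene called by edgeR. Ddit4 had the smallest edgeR adjusted p of all genes there, 0.133, with a log2 fold change of 0.25 (SE 0.051). The 4 lists had 8.33% to 22.7% of their tested genes called at 7 weeks, beside the 9.96% of all genes.

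**Figure D4:**
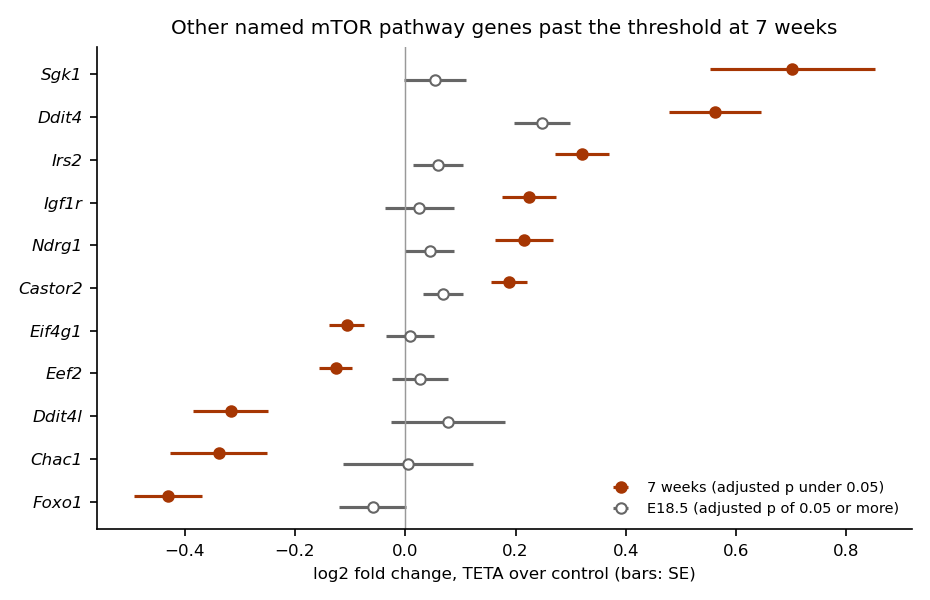
Log2 fold change of TETA over control (points) with SE (bars) for 11 of the 12 pathway genes outside the 35 that passed at 7 weeks (filled) and for the same genes at E18.5 (open). Values at 7 weeks run from -0.43 (Foxo1) to 0.70 (Sgk1), and at E18.5 Ddit4 has 0.25.

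Whether the TETA effect differed between ages was tested by an interaction term over all 4 groups. Of the 35 genes, 1 (2.86%) passed, against 3.1% of all 14660 genes tested; 54.0% of the genes called were higher in the difference, and 72.0% without TMM factors, where Rragd was not called. This was Rragd, whose effect was 0.06 at E18.5 and -0.13 at 7 weeks, a difference of -0.20 (SE 0.052, edgeR adjusted p 0.0239). The call was lost without 7-week TETA replicate 2 (adjusted p 0.0503). Mtor had a difference of the same size, -0.20 (SE 0.061), with an adjusted p of 0.0627, and Rps6kb2 one of 0.27 (SE 0.098, adjusted p 0.140). Rragc, called at 7 weeks and not at E18.5, had a difference of -0.09 and an adjusted p of 0.346, so a difference between ages was not shown for it. Among the other pathway genes Foxo1 (-0.38, adjusted p 0.0124), Sgk1 (0.64, adjusted p 0.0438) and Irs2 (0.25, adjusted p 0.0497) passed. All 13 of 13 striatal markers were also called in this term, each lower, with a median of -1.34. Their part in the differences of these genes and of Rragd was not tested. Foxo1 kept its call on leaving out each of the 21 libraries, while Irs2 and Sgk1 each lost it for 14 of the 21, with edgeR adjusted p-values of up to 0.102 without 7-week control replicate 2 and 0.116 without 7-week TETA replicate 2.

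Between the ages, far larger differences were found. In control libraries 28 of 35 genes (80.0%) differed at 7 weeks from E18.5 at a BH-adjusted p of 0.05 by edgeR, 16 higher and 12 lower, against 89.5% of all 14375 genes. The median absolute log2 fold change was 0.39 for the 35 genes and 0.79 for all genes. Control values of the 2 ages did not overlap for 80.2% of all genes, so separate ranges are common in this comparison. All 4 Rag GTPase genes and all 3 sestrins were higher at 7 weeks, and both PI3K and Akt genes, the 3 TSC subunits and both S6 kinases were lower. With the 4 E18.5 control libraries that held Y-linked reads, as all 7-week libraries did, 28 of the 35 genes were again called, 16 higher and 12 lower. Of all 14418 genes in that fit, 12662 were called. Age, the count table and the dissected region, which is not stated at E18.5, cannot be told apart in this comparison. At 7 weeks the markers of oligodendrocytes (5 of 5), microglia (5 of 5), astrocytes (5 of 5), inhibitory neurons (6 of 6), oligodendrocyte precursors (3 of 3), meningeal fibroblasts (4 of 4) and choroid plexus (2 of 2) were also higher. Striatal markers were higher in 11 and lower in 1 of 13 (median log2 fold change 0.88), excitatory cortical markers higher in 2 and lower in 4 of 6, and endothelial markers higher in 1 and lower in 1 of 4. Markers of neural progenitors (5 of 5) and red blood cells (4 of 4) were lower. The part of these cell types in the values below was not tested.

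Among genes of the complexes, Deptor changed most. It ran from 2.88 to 4.37 CPM (median 3.42) in E18.5 controls and was at 56.9, 63.8, 64.4, 58.5 and 54.3 CPM in 7-week controls, 17.3-fold higher (log2 fold change 4.11, SE 0.077, edgeR adjusted p 1.25e-23). The ranges were far apart. Mtor and Rptor were also higher, by log2 fold changes of 0.45 (SE 0.042) and 0.55 (SE 0.044), while Rictor did not differ detectably (-0.01, SE 0.053). The mTORC2 subunit genes Mapkap1, at 71.8 to 79.5 CPM (median 76.2) in E18.5 controls and 51.1 to 53.9 CPM at 7 weeks, and Prr5, encoding Protor-1, were lower, both by a log2 fold change of -0.55 (SE 0.040 and 0.11). Prr5 ran from 7.59 to 12.6 CPM (median 11.4) at E18.5 and was at 6.96, 7.05, 6.91, 7.01 and 9.23 CPM at 7 weeks, where replicate 5 overlapped the E18.5 range. Per kb of exon, the ratio of Rptor to Rictor in control was 1.02 to 1.45 at E18.5, and 1.80 to 1.99 later. In TETA libraries it was 1.17 to 1.32 and 1.65 to 1.79, so that at 7 weeks every TETA library was narrowly below every control library in this ratio, which was not tested. The other ratios computed for pairs of these genes overlapped between the 7-week groups, among them Tsc2 to Tsc1 (1.39 to 1.66 in control, 1.46 to 1.60 in TETA).

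Of the amino acid branch, Rragd ran from 77.4 to 85.6 CPM (median 83.2) in E18.5 controls and was at 187 to 195 CPM at 7 weeks (log2 fold change 1.22, SE 0.036). Rragc, Rraga and Rragb had log2 fold changes of 0.60, 0.45 and 0.27. The ratio of Rragd to Rragc per kb was thereby 0.907 to 1.04 at E18.5 and 1.48 to 1.51 at 7 weeks in control. In TETA libraries it was 1.00 to 1.11 and 1.44 to 1.49. The ratio of Rragb to Rraga per kb in control was 0.486 to 0.592 at E18.5 and 0.449 to 0.484 at 7 weeks, and 0.489 to 0.549 and 0.467 to 0.482 in TETA, with Rraga the more abundant in every library.

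Among the sestrins, Sesn2 ran from 4.45 to 5.97 CPM (median 5.54) at E18.5 and was at 17.7, 18.1, 18.1, 16.7 and 16.2 CPM at 7 weeks (log2 fold change 1.67, SE 0.076). Sesn3 ran from 96.1 to 111 CPM at E18.5 and was at 245, 225, 240.2, 243 and 234 CPM at 7 weeks (1.198, SE 0.039). The ranges of both genes were separate. Sesn1 was higher by 0.56 (SE 0.046), and the ratio of Sesn3 to Sesn1 per kb was 0.519 to 0.677 at E18.5 and 0.885 to 0.963 at 7 weeks in control, and 0.563 to 0.666 and 0.782 to 0.937 in TETA. Of GATOR1, which inactivates the Rag GTPases, Nprl3 (0.56) and Depdc5 (0.16) were higher and Nprl2 (-0.20) lower. Of the Ragulator scaffold, Lamtor1 and Lamtor4 were higher (0.30 each), as was Flcn, the folliculin gene (0.37), and Lamtor2, Lamtor3, Lamtor5 and Slc38a9 did not pass. Reads of Nprl3 and Lamtor1 may include those of Mpg and Lrrc51 on the opposite strand, which cover 17.7% and 18.7% of their exon bases, and 14.5% of the 50-base stretches of Lamtor5 also occur in the gene model Gm15190.

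On the growth factor branch, Akt1 ran from 316 to 384 CPM (median 368) in E18.5 controls and was at 177, 171, 181, 186 and 187 CPM at 7 weeks (2.00-fold lower, edgeR adjusted p 3.43e-16). Pik3ca, encoding the catalytic subunit of PI3K, ran from 114 to 131 CPM (median 122) at E18.5 and was at 86.0, 89.2, 98.5, 89.9 and 87.5 CPM at 7 weeks (-0.43, SE 0.044). For both genes every 7-week library was below every E18.5 library, where 80.2% of all genes had no overlap in either direction. The TSC subunits Tbc1d7, Tsc1 and Tsc2 had log2 fold changes of -0.34, -0.31 and -0.12, and Rheb did not pass. The decrease of Tsc2 lost its call without E18.5 control replicate 2-2 (edgeR adjusted p 0.0577), with DESeq2 (0.0639), with RLE factors (0.0564) and with a mean of at least 50 counts (0.106), and 7.20% of its exon bases overlap Pkd1 on the opposite strand. Pkd1 averaged 138 CPM in E18.5 controls and 146 CPM in 7-week controls. Akt1s1 was lower by a log2 fold change of -0.27 (SE 0.045).

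The substrates of mTORC1 that control translation moved in both directions. Eif4ebp2, encoding 4E-BP2, the main 4E-BP of neurons, ran from 205 to 244 CPM (median 219) in E18.5 controls and was at 71.9, 70.3, 73.1, 69.2 and 70.7 CPM at 7 weeks (log2 fold change -1.63, SE 0.044, edgeR adjusted p 1.23e-20). Eif4ebp1 ran from 1.5 to 2.76 CPM (median 1.87) at E18.5 and was at 3.69, 2.84, 3.40, 3.72 and 3.44 CPM at 7 weeks (0.75, SE 0.16). Every library held more Eif4ebp2 than Eif4ebp1 per kb of exon, by 29.6 to 61.7 times at E18.5 and 7.05 to 9.40 times at 7 weeks in control. The S6 kinase genes Rps6kb1 and Rps6kb2 were lower by log2 fold changes of -0.39 and -0.41, and their ratio per kb in control overlapped between the ages (1.46 to 2.05 and 1.41 to 2.04).

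In TETA libraries the same contrast of ages called 30 of the 35 genes, and 12686 of all 14337 genes. Of the 28 called in control, 27 were called there too, all in the same direction, and the largest difference between the estimates was 0.27 (Rps6kb2, -0.41 in control and -0.13 in TETA). Scaling by library totals alone shifted the median of all genes from -0.02 to -0.17 on the log2 scale and called 12971 of all 14375 genes. Of the 35 it gave 15 higher and 16 lower, with Mlst8, Rictor, Lamtor3 and Lamtor5 added and Depdc5 lost. Of other effectors, Tfeb and Mitf, encoding lysosomal transcription factors that mTORC1 restrains, were higher at 7 weeks (2.73, SE 0.14, and 2.63, SE 0.14), and Eif4a1 and Rps6, encoding an initiation factor and a ribosomal protein, were lower (-1.59, SE 0.039, and -0.90, SE 0.049). On the amino acid branch Slc36a1, a lysosomal amino acid transporter, was higher (1.75) and Rnf152 and Fnip2 were lower (-1.63 and -1.47), with Castor1 higher (0.93). Ddit4l (2.98) and Akt2 (0.89) were higher and Rhebl1 (-1.40) and Irs1 (-1.23) lower, and of the ATF4 targets the cystine transporter gene Slc7a11 (3.53) and Chac1 (1.81) were higher and Aldh18a1 (-1.37) and Mthfd2 (-0.75) lower.

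**Figure D5:**
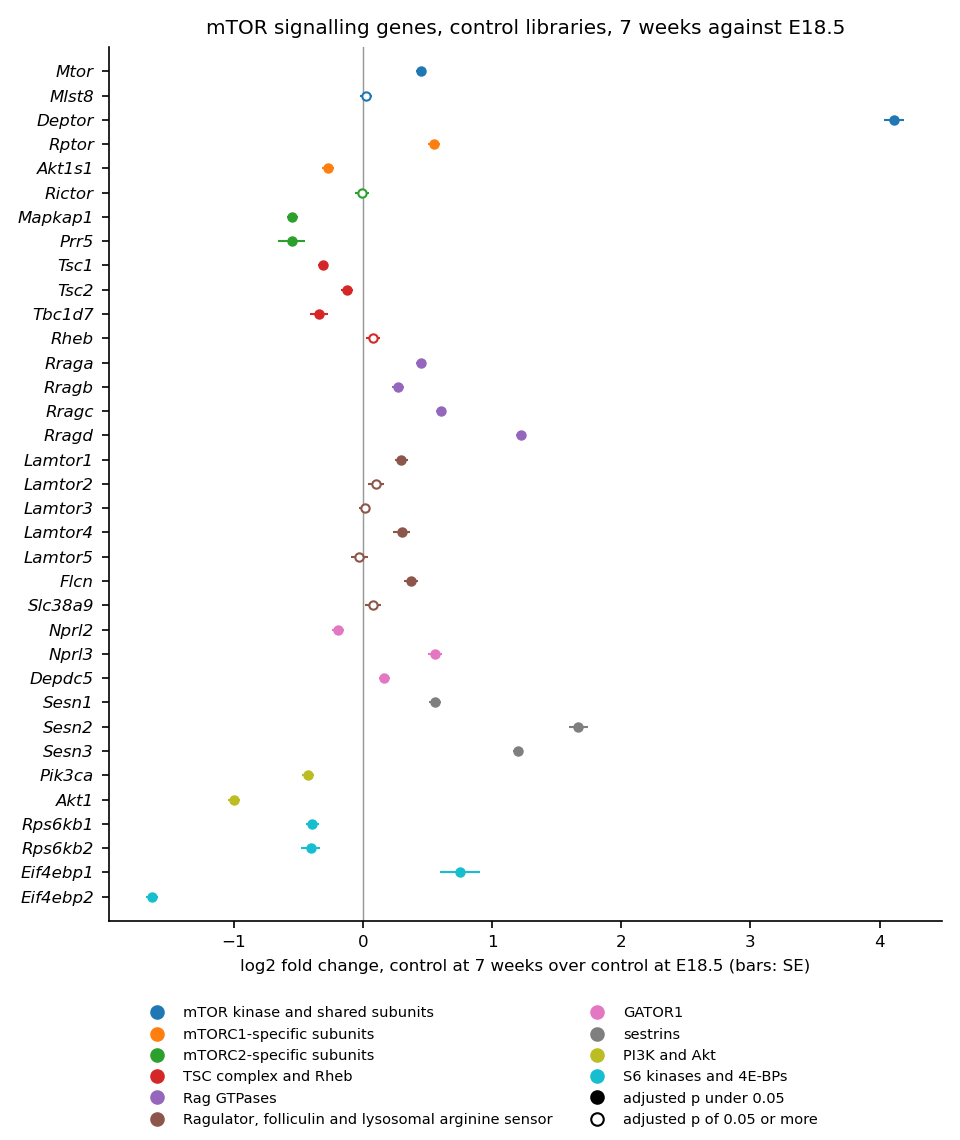
Log2 fold change of control at 7 weeks (n = 5) over control at E18.5 (n = 6) for the 35 genes (points) with SE (bars), coloured by role; filled points have an adjusted p under 0.05. Deptor is at 4.11 and Eif4ebp2 at -1.63, and all 4 Rag GTPase genes and all 3 sestrins lie above 0.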

How the data were processed

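The authors deposited 2 tables of raw counts per gene symbol, 1 per age and 1 column per library, per the file headers. STAR 2.7.1a, featureCounts 2.0.1 and mm10 are named in the submitters' processing notes, and libraries were stranded poly(A) libraries, per the labels' protocols. The annotation, strand setting and handling of multi-mapped reads are not given in the sources used here. At E18.5, genes at 0 in control replicate 1-1 (1940 rows) held multiples of 11 in the other libraries and were divided by 11; 0 of the 35 genes were among them. Replicates were compared for repeated deposits (lowest chi-square per gene 2.27 over 46 pairs), and none was within sampling noise.

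Each comparison was fitted over all genes with edgeR 4.0.16 (limma 3.58.1, R 4.3.3): filterByExpr with a minimum count of 10, TMM factors, the quasi-likelihood test and BH adjustment at 0.05. TETA was compared with control within each age, controls between ages, and the TETA effect between ages by an interaction term. SE is the absolute log2 fold change over the square root of F. CPM are scaled by TMM factors over all 21 libraries, exon lengths are unions of GENCODE M21 exons (GRCm38), and promoters are RefSeq's. DESeq2 1.42.0 and the other settings are alternatives. The fits were tested on simulated data.

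The 35 genes, the pathway and marker lists and the naming rule were chosen with earlier results of these data known. Values by library are given for Mtor, Rptor, Rictor, Tsc1 and Tsc2, for each of the 35 past the threshold with TETA, for the 3 smallest p-values at E18.5, and for the 5 largest changes each way between ages. At most 4 other pathway genes per list are named by p, or the 2 highest and 2 lowest between ages; Eif4g1 and Drd2 were added after their values were seen. Of 79 pathway genes 78 were found, and 1 of those called at 7 weeks is counted but not reported here.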

Additional observations from a re-analysis of the deposited data

Results flagged for a closer look

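The effect of TETA on Rragd differed between the ages, by -0.20 on the log2 scale (edgeR adjusted p 0.0239 for the interaction). That on all 13 striatal markers differed too, with a median of -1.34. In 76 groups of named genes and libraries, 6 held a highest or lowest library set apart from the others by Dixon's criterion, where chance gives about 1 in 20, or 3.8. Rictor was at 74.3 CPM in 7-week control replicate 3 and at 72.1 to 72.5 CPM in the other 4. Tsc1 was at 135 CPM in E18.5 control replicate 2-2, beside 121 to 125 CPM in the others. Deptor was at 4.24 CPM in E18.5 TETA replicate 1-2, beside 3.19 to 3.52 CPM. E18.5 control replicate 1-2 was low for both Akt1 (316 CPM, beside 357 to 384 CPM) and Prr5 (7.59 CPM, beside 10.8 to 12.6 CPM). Prr5 was at 9.23 CPM in 7-week control replicate 5, beside 6.91 to 7.05 CPM.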

How the results depend on the processing

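With a replicate block over the shared numbers, 2 of the 35 genes (Rragd, adjusted p 0.0372, and Rps6kb2, 0.00361) and 1063 genes in all passed at 7 weeks (985 shared with the unblocked fit); Mtor was at 0.0995 and Rragc at 0.119. The libraries were treated as sharing only a number: correlations of deviations ran from -0.219 to 0.197 at E18.5, where 2 of 6 numbers (1-1 and 1-2) correlated best with their own and the block called 0 genes, and from -0.0734 to -0.0225 at 7 weeks, where 0 of 4 did. Leaving out 1 library gave 1 to 4 of the 35 and 927 to 1392 genes at 7 weeks. Both were lowest without TETA replicate 3, with 1 of the 35 also without control replicate 4. Without control replicate 2 or TETA replicate 4 it was 2 of the 35. At E18.5 it gave 0 of the 35 and 0 to 7 genes (7 without TETA replicate 1-2, 3 without control replicate 3-2). Between ages it gave 27 to 29 of the 35 and 12686 to 12837 genes. For the interaction it gave 0 to 2 of the 35 and 290 to 622 genes. There 2 of the 35 passed without E18.5 control replicates 2-2 or 3-2, E18.5 TETA replicate 2-2 or 7-week control replicate 5. Without 7-week TETA replicate 2, 0 passed. The fewest genes were 290, without 7-week TETA replicate 3, and the most 622, without E18.5 TETA replicate 1-2. The striatal score as a covariate left 0 of the 35 and 0 genes at 7 weeks and turned the sign of 12 of the 35, with SEs of 0.12 to 0.60, among them Eif4ebp1 (-0.34 to 0.38), Rps6kb2 (0.28 to -0.054), Tsc1 (-0.15), Tsc2 (-0.20) and Mlst8 (-0.16). The score separated the groups completely, so that fit cannot part treatment from striatal marker content. At E18.5 DESeq2 called 10 genes and summed libraries with the same first number 2. For the interaction DESeq2 called 2 of the 35 (Mtor and Rragd) and 616 genes in all. Library totals without TMM factors called 0 of the 35 and 574 genes. Rragc also lost its call at 7 weeks without a filter (adjusted p 0.0592) and without TMM factors (0.0842), where 67.6% of called genes were higher against 57.0% with them.

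Other signs that turned were as follows. Rps6kb2 at E18.5 (-0.01) ran from -0.042 to 0.030 on leaving out a library and was 0.068 in libraries with Y-linked reads only, an alternative chosen after seeing the data. At 7 weeks Tsc1 ran from -0.018 to 0.047 and Sesn3 from -1.68e-04 to 0.031 on leaving out a library. Between ages Rictor (-0.01) ran from -0.046 to 0.036 on leaving out a library, and was 0.037 with a mean of at least 50 counts, 0.020 with DESeq2 and with RLE factors, 0.010 with the counts as deposited and 0.027 in TETA libraries. Of 849 values of the named genes under alternatives, 792 kept their direction and side of the threshold, 30 lost and 6 gained a call, and 21 turned. The cause was not tested. Eif4ebp1 had at most 80 counts in any library.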
